A study of Homo sapiens with 4 samples.

Results

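The sites described here are mutated bases that lie in protein-coding sequence, in RNA recovered with PARP1 from HK-2, a human epithelial cell line of the kidney proximal tubule that was immortalised in culture. They were taken by their deposited annotation: every listed site whose region class is CDS, of any mutation type. There were 3966 such sites among 166248 in PARP1 IP 1 (2.39%, exact 95% interval 2.31 to 2.46) and 4326 among 229782 in PARP1 IP 2 (1.88%, 1.83 to 1.94). The series holds 4 samples, 2 PARP1 immunoprecipitations (IPs) with a monoclonal Flag antibody and 2 inputs, and its title names extracellular matrix genes of renal tubular cells. Both IPs were made from the same line, with lysates pre-cleared on protein G beads and 6 washes. No treatment, control IP or crosslinking step is described, and nothing says how a Flag tag was carried or whether the IPs came from separate cultures. The inputs were not analysed here, so no value below is an enrichment over input.

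PARP1 works in the nucleus, where it builds chains of ADP-ribose on itself and other proteins, and it is best known for its response to DNA breaks. Coding sequence is the part of a messenger RNA that ribosomes read in triplets, the codons, and in the gene it is usually divided among exons joined by splicing. Many changes at the last base of a codon leave the amino acid as it was, and a gain or loss of bases that is not a multiple of a codon shifts the reading frame.

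Every site covers a single base of one strand (GRCh38), and the lists give how many tags cover it (k) and how many of them are mutated (m). A site is listed with 2 or more mutated tags, and the sequence of the mutated tags is not part of the lists. An RNA with many tags and no mutated base has no site, so a count of sites is not a measure of expression or of binding. Of the coding sites, 3896 in IP 1 and 4277 in IP 2 could be placed in the longest coding transcript of their gene in GENCODE release 29, and 3883 and 4263 in a complete reading frame. With 2 IPs and no listed control, no test over samples could be made. The intervals are exact Clopper-Pearson intervals at 95% and cover counting error only, since reads amplified by PCR and carrying no molecular identifier cannot be counted as separate molecules.

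Of 226 coding sites listed at the same base and strand in both IPs, 73 had 2 mutated tags in both, and 26 had 4 or more in both. The base changes shown here are among those with the most mutated tags, so they are not typical of recurrent coding sites. Below, each is given in the mRNA sense from GENCODE 29 transcripts, 14 bases on either side, with the listed base in capitals.
PXDN: atgcgggacgagaaCgagagccccatccc
FHL2: gacatcctgtgcccCgactgtgggaaaga
PYCR1: gggaccgctctgtcAccttctggccacac
ZBTB46: gatgcgctgttggcGgacgacaaggatga
TRIP6: aggaagctgctgggGtctctggccctgca
The PXDN base lies at chr2:1648888-1648888 on the minus strand, at the last base of codon 964, and 9 of 11 tags were mutated in each IP. PXDN encodes peroxidasin, which crosslinks collagen IV. The FHL2 base, at chr2:105361304-105361304 on the minus strand, was mutated in 6 of 10 tags in IP 1 and 8 of 12 in IP 2. FHL2 is a LIM domain protein of focal adhesions and of the nucleus. The base in PYCR1, the gene of a mitochondrial enzyme of proline synthesis, is at chr17:81933271-81933271 on the minus strand and was mutated in 8 of 8 tags in IP 1 and 6 of 6 in IP 2. The bases in ZBTB46, a zinc finger transcription factor (chr20:63747011-63747011, minus strand), and TRIP6, a LIM protein of adhesion sites (chr7:100868819-100868819, plus strand), were mutated in 5 of 5 tags in both IPs. The PXDN, FHL2, PYCR1 and ZBTB46 bases are the last of their codons, and the TRIP6 base is the first of codon 230.

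The deletions found in both IPs are shown for their length and for the repeats around them. The deleted bases are in capitals, and the flanking bases in lower case.
COL18A1: cggcccccccGGCCCCCCAggccccccag
MEGF9: cgccgccgccgCCGCCGtcgcctcagcc
VAT1: cgccgccgccgccGCCtcgccgccactgc
PIEZO1: tagaagaaggaagAAGgagggcccagcac
COL18A1 encodes collagen XVIII, a basement membrane collagen whose end is released as endostatin. Its 9 deleted bases (chr21:45504512-45504520, plus strand, coding bases 4069 to 4077) are 3 whole codons, and the same 9 letters follow them. The run in MEGF9, a membrane protein with EGF-like repeats, spans 6 bases of a repeated CCG triplet (chr9:120714265-120714270, minus strand). The runs in VAT1, a vesicle membrane protein, and PIEZO1, a mechanically gated cation channel, are 3 bases each (chr17:43022194-43022196 and chr16:88721200-88721202, both minus strand).

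Another kind of coding site is the inserted base at an exon junction. The listed base is in capitals, and each window crosses a splice junction, so it is continuous in the mRNA and interrupted by an intron in the genome.
F11R: tgcgcatggaagctGtggagcggaatgtg
AKR1B1: ttcatcgtcagcaaGctgtggtgcacgta
DCBLD2: aggctgactctgcaGagtatgctcagcca
Each of these 3 insertions was listed at the base next to the junction in both IPs. F11R, a tight junction adhesion molecule (chr1:160999876-160999876, minus strand), had 4 of 6 mutated tags in IP 1 and 4 of 4 in IP 2. AKR1B1, the aldose reductase (chr7:134451586-134451586, minus strand), had 7 of 15 and 3 of 17. DCBLD2, a membrane receptor (chr3:98800579-98800579, minus strand), had 2 of 13 and 3 of 16.

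Coding sites held fewer substitutions, and more deletions and insertions, than the rest of the lists, but the excess of deletions turned round where 3 or more mutated tags were required. Substitutions made up 49.5% of the coding sites of IP 1, against 73.1% of the sites outside coding sequence, and 48.1% against 74.0% in IP 2. Deletions made up 37.4% of coding sites against 21.4% outside in IP 1, and 38.5% against 20.7% in IP 2. Insertions made up 13.1% against 5.50% in IP 1, and 13.4% against 5.32% in IP 2. Each of these gaps is larger than the difference between the IPs in the same class. Among sites with 3 or more mutated tags, deletions were 7.93% of coding sites against 10.3% of others in IP 1, and 6.89% against 10.9% in IP 2. Insertions kept their excess there, 11.3% against 5.00% in IP 1 and 12.9% against 5.03% in IP 2. The gap in substitutions narrowed, to 80.8% against 84.7% in IP 1 and 80.2% against 84.1% in IP 2. The 3' untranslated regions held a share of substitutions near that of coding sequence, 51.0% in IP 1 and 48.8% in IP 2, more deletions, 41.3% and 43.8%, and fewer insertions, 7.70% and 7.44%. In the 5' untranslated regions deletions were 29.7% and 36.7%.

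**Figure D1:**
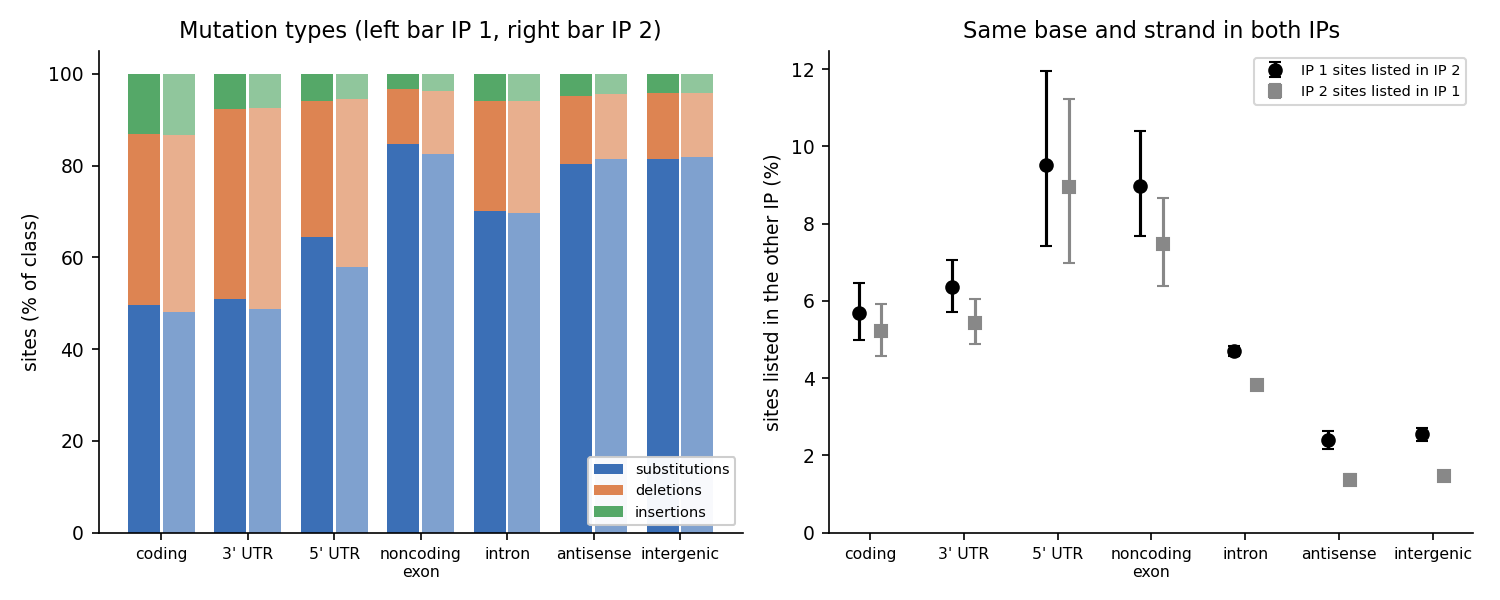
Left, the percentage of substitutions, deletions and insertions among the sites of each region class, with IP 1 as the left and IP 2 as the right bar of a pair. Right, the percentage of sites listed at the same base and strand in the other IP, with exact 95% intervals; coding sites stand at 5.70% and 5.22%, and hold the largest share of insertions of the 7 classes plotted.

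Coding sites were covered by more tags than the sites outside coding sequence taken as a whole, and untranslated regions came near them. The mean k was 4.53 in coding sequence against 2.48 outside it in IP 1, and 4.57 against 2.45 in IP 2, and the median coding site had 3 tags in both IPs. Sites with 10 or more tags were 10.1% of the coding sites in each IP, against 0.840% of the other sites in IP 1 and 0.809% in IP 2. In the 3' untranslated regions such sites were 7.37% in IP 1 and 7.65% in IP 2, and in the 5' untranslated regions 8.93% and 7.59%. The smallest kind of evidence, 2 tags that were both mutated, made up 48.4% of coding sites against 83.6% of others in IP 1, and 47.3% against 84.0% in IP 2.

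The 3 mutation types differed in how many tags carried them. Coding substitutions were shallow and nearly complete, with a mean k of 3.03 in IP 1 and 3.11 in IP 2, and all tags mutated at 89.6% and 90.7% of sites. Coding deletions were deeper and mostly partial, with a mean k of 6.45 and 6.23 and all tags mutated at 20.8% and 22.0%. Coding insertions lay between in depth, with a mean k of 4.72 and 5.08, and all tags were mutated at 30.4% and 24.7%. Since the lists require mutated tags, k and the mutated share of a listed site are tied to the authors' threshold, whose value the labels and file headers leave unstated. Every coding substitution with 2 mutated tags had 2 tags in all, 1485 in IP 1 and 1557 in IP 2. The other types with 2 mutated tags were listed at up to 14 tags. Of the coding substitutions with 3 or more mutated tags, 274 of 479 in IP 1 and 330 of 524 in IP 2 had all tags mutated.

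The deepest coding sites had few mutated tags and were listed in 1 IP only. In IP 1 they included deletions in the mitochondrially encoded MT-ND5 (3 of 129 tags) and MT-CO3 (3 of 114), and 2 neighbouring deleted bases in LOXL2, a lysyl oxidase that crosslinks collagen (3 of 69 each). In IP 2 they were substitutions in MT-CYB (4 of 138) and MT-ND4L (4 of 84) and a deletion run of 3 bases in HSP90AA1, an HSP90 chaperone (3 mutated tags at a depth of 74 to 75). That run sits in a stretch of repeated AAG triplets on the minus strand of chromosome 14, with the deleted bases in capitals.
HSP90AA1: aagaagaagaagaAGAttaaggaaaagta
The mitochondrial genes had 2 coding sites in each IP, in 4 of the 13 genes, and none of them in both IPs.

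Recurrence at the same base and strand was 226 sites, 5.70% of the coding sites of IP 1 (interval 5.00 to 6.47) and 5.22% of those of IP 2 (4.58 to 5.93). Over all sites of the lists it was 4.17% in IP 1 and 3.02% in IP 2. Of the 226 pairs, 225 had the same mutation type in both IPs: 161 substitutions, 41 insertions and 23 deleted bases. The shared deleted bases fell into 6 runs, so they are fewer events than bases. In 137 pairs every tag was mutated in both IPs, and in 73 both IPs had 2 mutated tags.

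Coding substitutions recurred more often than substitutions over the whole lists, and so did those of the 3' untranslated regions. They did so at 8.20% in IP 1, where 4.81% of all substitutions recurred, and at 7.74% in IP 2, where the figure over all was 3.43%. Substitutions of the 3' untranslated regions recurred at 9.22% and 8.18%. Coding insertions recurred at 7.88% in IP 1 and 7.24% in IP 2, against 4.42% and 3.40% of all insertions. Coding deletions recurred at 1.62% and 1.38%, close to the 1.98% and 1.48% of all deletions. Recurrence in the 3' untranslated regions, 6.36% in IP 1 and 5.44% in IP 2, was within the intervals of the coding sites. In introns it was 4.71% and 3.82%. It was above coding sequence in the 5' untranslated regions, at 9.51% and 8.94%, and in exons of noncoding genes, at 8.97% and 7.47%.

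Recurrence rose with the number of mutated tags. Coding sites with 2 mutated tags were in the other IP at 3.65% in IP 1 and 3.08% in IP 2. Those with 3 recurred at 11.8% and 14.7%, and those with 4 or more at 23.3% and 19.8%. A coding base was listed on the opposite strand in the other IP at 0.958% of sites in IP 1 and 0.670% in IP 2, where all sites gave 1.22% and 0.884%.

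Of the other shared bases among the 15 with the most mutated tags, some were complete and some partial in both IPs. CELSR2, an atypical cadherin, had 5 of 5 and 6 of 6 mutated tags in IP 1 and IP 2. MYO1C, an unconventional myosin, had 4 of 8 and 10 of 12. HSPG2, the basement membrane proteoglycan perlecan, had 4 of 12 and 5 of 7. These partial values differ from the complete ones in that unmutated tags were present in both IPs. SH3PXD2A, a scaffold of invasive podosomes, had 4 of 7 and 8 of 14. SEMA4B, a semaphorin, had 4 of 6 and 8 of 13, and LACTB, a mitochondrial protein, had 4 of 6 in both. NLGN2, a neuroligin, had 7 of 7 and 4 of 6, MDM1 had 4 of 6 and 5 of 5, and RECQL4, a DNA helicase, had 5 of 5 and 6 of 6.

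Coding substitutions were more frequent at the last position of the codon, although each position holds the same number of bases in a reading frame. The last position held 46.0% of them in IP 1 (interval 43.7 to 48.2) and 47.1% in IP 2 (44.9 to 49.3). The shared substitutions lay there at 56.1% (88 of 157, interval 47.9 to 64.0), against 45.1% of those listed in IP 1 alone and 46.3% in IP 2 alone. The interval of the shared sites overlaps that of the sites listed in IP 2 alone, which ends at 48.6, and not that of the sites listed in IP 1 alone, which ends at 47.4.

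A CG pair held 19.2% of coding substitutions in IP 1 and 18.9% in IP 2, while 6.17% of all coding bases of these genes are in such a pair. Among shared substitutions the figure was 30.8% (49 of 159, interval 23.7 to 38.6). Adenine was the reference base at 16.0% and 16.6% of coding substitutions, below its 26.6% of coding bases. The substitutions were spread along the coding sequence: divided into 5 equal parts, each part held 18.4% to 20.8% of them in IP 1 and 18.3% to 23.0% in IP 2. They were scarce beside exon junctions, with 2.95% in IP 1 and 3.47% in IP 2 within 5 bases, where 5.22% of coding bases lie.

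**Figure D2:**
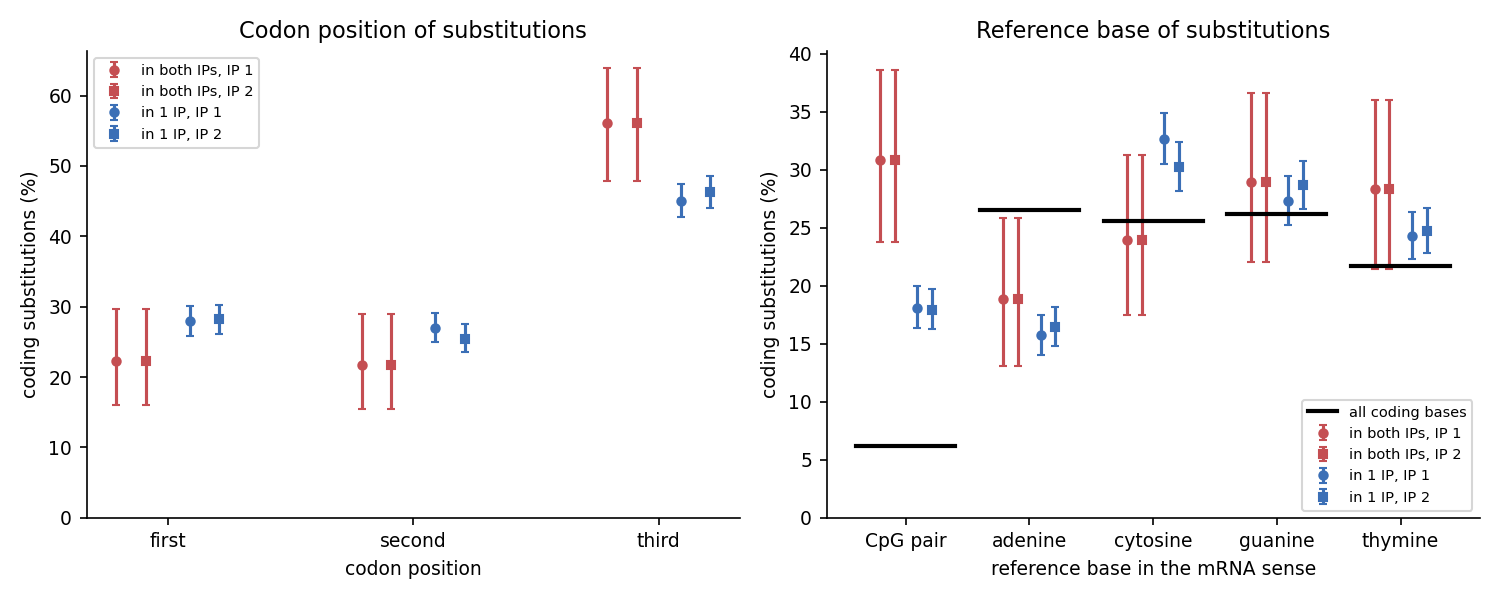
Percentage of coding substitutions at each codon position (left) and at each reference base or in a CpG pair (right), for substitutions listed in both IPs and in 1 IP, with exact 95% intervals and, on the right, the share among all coding bases as a line. The last codon position held 56.1% of the shared substitutions, and the CpG pair held 30.8% of them, against 6.17% of coding bases.

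Coding deletions were mostly short. Adjacent deleted bases with equal m were joined into runs, which gave 983 runs in IP 1 and 1098 in IP 2, and 62.2% and 60.0% of them were a single base. Runs of 2 bases numbered 299 and 359. The single deleted base was a T in 63.1% of placed cases in IP 1 and 63.6% in IP 2, while T makes up 21.7% of coding bases. Pairs ending in T led the runs of 2: AT was 30.1% and 29.2% of them, against 5.23% of neighbouring coding base pairs. CT followed with 13.7% and 15.3%, and GT with 13.7% and 12.7%. Where a deleted base sits in a run of equal bases, its exact position is a convention of the alignment.

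Longer coding deletions were mostly multiples of 3. Of the runs of 3 bases or more, 60 of 73 in IP 1 (82.2%, interval 71.5 to 90.2) and 66 of 80 in IP 2 (82.5%, 72.4 to 90.1) kept the length of the reading frame. In introns the share was 52.1% in IP 1 (49.4 to 54.8) and 52.9% in IP 2 (50.6 to 55.2), and the coding intervals do not overlap these. In the 3' untranslated regions it was 72.0% and 57.0%, a spread between the IPs that leaves IP 1 within the coding interval. Runs of exactly 3 bases made up most of the coding multiples, 54 in IP 1 and 59 in IP 2, and with 3 or more mutated tags all 4 runs of IP 1 and all 9 of IP 2 were multiples of 3.

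**Figure D3:**
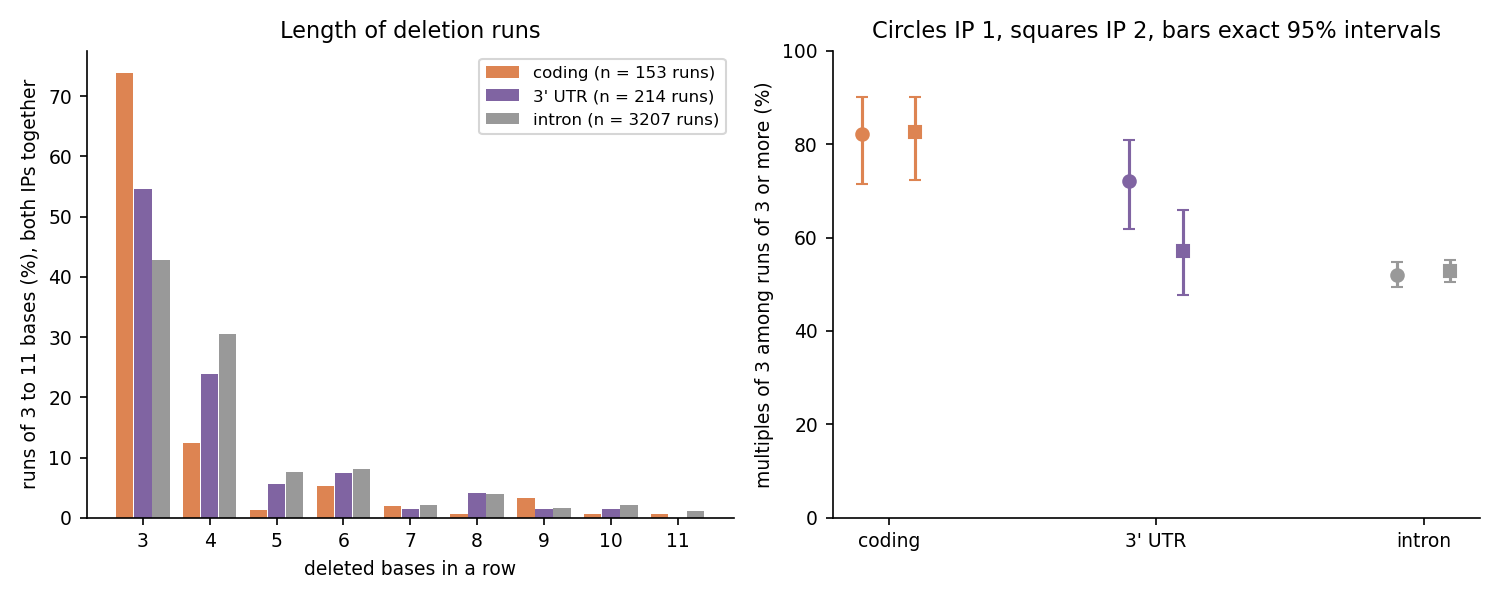
Left, lengths of deletion runs of 3 to 11 bases in coding sequence, 3' untranslated regions and introns, as a percentage of such runs over both IPs. Right, the share of multiples of 3 among runs of 3 or more in each IP with exact 95% intervals; it was 82.2% and 82.5% in coding sequence and 52.1% and 52.9% in introns.

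The genes of the longest coding runs were chosen after their values were seen. GLIS3, a zinc finger factor linked to kidney and pancreas development, had a run of 11 bases in IP 1, and GTF3C2, a subunit of the RNA polymerase III factor TFIIIC, one of 10 in IP 2. Both are shown as the runs of most bases, and the 9 bases before the GTF3C2 run occur again within it.
GLIS3: tctctacagCATGCAACCAGatcagtcct
GTF3C2: aggccccaaAAGGCCCCAAcagcctaat
Neither length is a multiple of 3. Runs of 9 were in CLINT1, ZNF592, SOCS1 and, in both IPs, COL18A1, and runs of 6 numbered 3 in IP 1 and 5 in IP 2, among them those of MEGF9, PIEZO1 and SMPD1.

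The same ends were listed in both IPs for 6 runs, 0.610% of the coding runs of IP 1 and 0.546% of those of IP 2, where 1.35% and 1.04% of all runs recurred. COL18A1 had all 4 of 4 tags deleted in IP 1 and 3 of 4 in IP 2. MEGF9 had 3 of 3 and 2 of 2, and PIEZO1 had 2 of 3 and 4 of 5. VAT1 was deeper and partial, with 2 of 11 and 2 of 12. The other 2 shared runs were single bases in ABCC10, a membrane transporter (2 of 8 and 2 of 6), and FAM120A, an RNA-binding protein (2 of 7 and 2 of 14).

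Coding insertions lay at exon junctions. Within 3 bases of a junction in the spliced transcript were 72.6% of them in IP 1 and 75.3% in IP 2, where 3.13% of coding bases lie. The same distance held 1.50% and 1.51% of coding substitutions. The listed base was the last of the upstream exon at 54.1% and 56.6% of insertions, and the first of the downstream exon at 13.2% and 13.7%. A similar measure, taken from the annotated exon edges, held 72.8% and 76.0% of coding insertions. It held 6.31% and 6.12% of intronic insertions, and 9.76% (4 of 41) and 32.5% (13 of 40) of those in 5' untranslated regions. In 3' untranslated regions it held 0.258% and 0.228%. Inside introns this measure reaches fewer bases, and how many bases lie near a junction was counted for coding sequence only. These shares are therefore not comparable between classes. Substitutions lay that near an annotated edge at 1.59% and 1.69% in coding sequence, and at 0.163% and 0.186% in introns. For substitutions in 5' untranslated regions it was 1.58% and 1.18%. Insertions thus exceeded substitutions near an edge in introns and 5' untranslated regions too, so the excess was not particular to coding sequence. The sources do not say how tags that span a junction were aligned around it, and its part in the result was not tested.

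**Figure D4:**
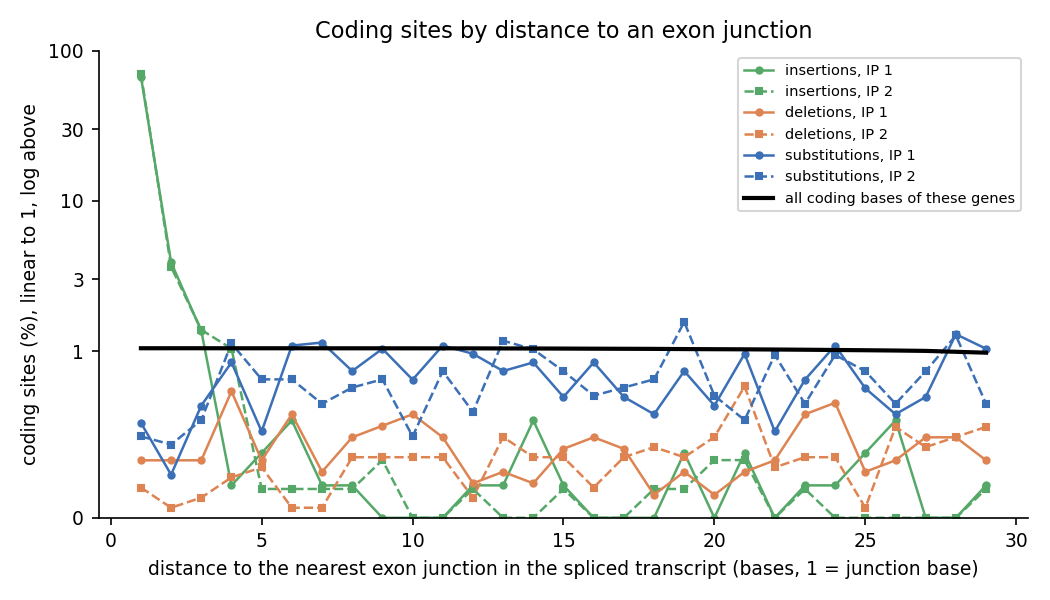
Percentage of placed coding insertions, deletions and substitutions at each distance from 1 to 29 bases from the nearest exon junction, with the share of all coding bases of these genes as a black line (vertical axis linear to 1 and log above). The junction base alone held 67.3% of insertions in IP 1 and 70.2% in IP 2, and deletions and substitutions stayed below 1% there.

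Junction insertions recurred more often than the remaining ones. Within 3 bases of a junction 37 insertions recurred, 9.92% in IP 1 (interval 7.08 to 13.4) and 8.51% in IP 2 (6.06 to 11.5). Farther away, 2.84% (0.778 to 7.10) and 3.50% (1.14 to 7.97) did. The intervals overlap in IP 2 and narrowly in IP 1. The insertions away from junctions sat in runs of 6 or more equal bases at 54.6% in IP 1 and 69.2% in IP 2, against 1.34% and 1.38% of those near one and 0.620% of all coding bases.

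A close neighbour was no more frequent at coding sites than in 3' untranslated regions, and deletion runs, which are listed base by base, account for part of these counts. Another site of the same IP and strand lay within 10 bases of 23.9% of coding sites in IP 1 and 25.1% in IP 2, against 27.3% and 28.5% in the 3' untranslated regions and 19.4% and 19.9% in introns. Among coding substitutions alone it was 3.06% and 3.22%, below the 6.78% and 6.67% of intronic substitutions.

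Genes with a coding site numbered 2599 in IP 1 and 2800 in IP 2, and 979 had one in both. Among 19702 annotated genes with a coding sequence, 13.1% had a coding site in IP 1, 14.2% in IP 2 and 4.95% in both, and 0.959% had the same base listed in both. Most of these genes had 1 site, 68.0% in IP 1 and 67.8% in IP 2, and 53 and 68 genes had 5 or more. Over all annotated genes, the number of coding sites in IP 1 and IP 2 had a Spearman rank correlation of 0.275, a description in which genes share coding length and library. Long coding sequences had more: the share with a site in both IPs was 0.304% in the shortest decile of genes (median coding length 366 bases) and 20.8% in the longest (4473 bases). Per 100 kb of coding length the density was much flatter, 10.4 in IP 1 and 8.80 in IP 2 in the shortest decile and 12.5 and 14.1 in the longest.

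By chromosome, coding sites per 100 kb of coding length were 11.5 in IP 1 and 12.6 in IP 2 over all. Among the nuclear chromosomes, chromosome 20 had 17.9 and 15.9, chromosome 14 had 15.7 and 17.3, and chromosome 16 had 14.4 and 16.0. These 3 stood above the overall density in both IPs by more than they differed between IPs. So did chromosome 9 with 14.5 and 14.8, chromosome 21 with 13.2 and 14.6, and chromosome 4 with 13.2 and 13.1. Chromosome X had 8.63 and 8.01 and chromosome 11 had 8.09 and 9.53, below it in both. Chromosome 21 had 12 recurrent sites among 45 in IP 1, of which 9 belong to the COL18A1 run. With each deletion run counted as 1, chromosome 21 had 9.95 in IP 1 and 11.7 in IP 2, against 10.1 and 10.9 over all genes. Counted so, it no longer stood above the overall density in IP 1.

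Of the genes with the most coding sites most had a long coding sequence, and MEGF9, with 1806 bases, did not. AHNAK2, a giant scaffold protein, had 11 sites in IP 1 and 10 in IP 2, of which 8 and 7 were substitutions, over a coding length of 17385 bases. LAMA5, the laminin alpha 5 chain, had 4 and 15, and HSPG2 had 6 and 10. DST, the cytoskeletal linker dystonin, had 7 in each IP, and PLEC, the linker plectin, had 7 and 9. AHNAK2 and DST were even between the IPs, while LAMA5 was not.

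In LAMA5, 2 of 4 sites in IP 1 and 2 of 15 in IP 2 were shared. Coding sites as a whole recurred at 5.70% and 5.22%, so LAMA5 lay above them, on small counts. In IP 2, 9 of its sites were substitutions, and 2 of these had many complete tags, 12 of 12 at coding base 3773 and 8 of 8 at coding base 3381. Neither was listed in IP 1. Shared were a substitution at coding base 3534 (5 of 5 in IP 1 and 4 of 4 in IP 2) and a junction insertion at coding base 2739 (2 of 5 and 3 of 3). In HSPG2, 2 substitutions were shared and both were partial, at coding base 9852 (4 of 12 and 5 of 7) and 9766 (4 of 10 and 3 of 7).

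JMJD1C, a jumonji domain chromatin protein, and ARHGAP5, a GTPase-activating protein, had no substitution at all. JMJD1C had 9 coding sites in IP 1, all deletions, and 8 in IP 2, 7 of them deletions, and none was shared. Its longest run, 7 bases in IP 1, was mutated in 2 of 11 to 12 tags. ARHGAP5 had 4 deletions and 1 insertion in IP 1 and 6 deletions in IP 2, with up to 14 tags in each IP. FBN1, fibrillin 1 of matrix microfibrils, had 5 sites in IP 1 and 6 in IP 2, of which 2 and 5 were insertions, and 2 and 4 of those lay within 3 bases of a junction.

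The 10 densest genes per kilobase with at least 6 sites differed in mutation type. MEGF9, VAT1, SMPD1, COL18A1, CSF1, PRICKLE1 and ZNF217 were dense mostly through deletions. CSF1 had 4 deleted bases in IP 1, and 1 deleted base and 1 substitution in IP 2. MEGF9 had 7 sites in IP 1 and 6 in IP 2, of which 6 in each were its shared run. SMPD1, acid sphingomyelinase, had 1 and 7, of which 6 in IP 2 were 1 run. ZNF217, a zinc finger protein, had 4 and 7 deleted bases, none shared. ZBTB46 and ACSF3, a mitochondrial malonyl-CoA synthetase, were dense through substitutions alone, and BCAR1, an adaptor of focal adhesions, had 3 and 1 substitutions and 2 and 3 deleted bases.

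ZBTB46 had 4 substitutions in IP 1 and 5 in IP 2, and 3 were shared. At coding base 1689 all 5 tags were mutated in both IPs, at 1704 all 4 in IP 1 and both in IP 2, and at 801 there were 3 of 5 and 4 of 12. ACSF3 had 3 in IP 1 and 4 in IP 2, and its 3 shared bases were coding bases 342, 354 and 369. All ACSF3 tags at these bases were mutated, and all 3 bases were last in their codons. CACNA1H, a T-type calcium channel, had 6 and 4 substitutions with all tags mutated, of which 3 were shared, and CARHSP1, an RNA-binding phosphoprotein, had 2 in each IP, both shared.

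TAF1L differed from the other leading genes in being a single-exon copy of TAF1, a subunit of the general transcription factor TFIID. All 7 of its sites in IP 1 and all 7 in IP 2 were substitutions with every one of 2 to 3 tags mutated. All 14 lay at bases where its coding sequence differs from that of TAF1, and such bases are 5.20% of the 5478 bases of TAF1L. TAF1 had no coding site. KIF4B, a single-exon copy of the kinesin KIF4A and chosen after its values were seen, had 1 site in IP 1 and 9 in IP 2, all of the same kind, where 4.27% of its 3702 bases differ from KIF4A. How tags that fit both copies were assigned is not stated in the labels or file headers.

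PARP1 itself, whose protein was the target, had 5 coding sites in IP 1 and 2 in IP 2, over 3042 coding bases. In IP 1 they were 3 insertions, 1 deletion and 1 substitution, with up to 8 tags, and 2 of the insertions were at a junction base. In IP 2 they were 2 neighbouring deleted bases with 2 of 6 tags mutated. None was shared.

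Matrix genes, the subject of the title, were examined as lists chosen with earlier results of these data known. Matrix glycoproteins and proteoglycans had coding sites in both IPs in 19 of 47 genes, in 1 IP in 14 and in neither in 14. That is 40.4% in both, against 4.95% of all genes, but the genes of this list are long, with a median coding length of 4125 bases, and 20.8% of the longest decile of all genes had a site in both. Its density was 26.1 sites per 100 kb in IP 1 and 33.2 in IP 2, against 11.5 and 12.6 over all genes. FN1, fibronectin, had 4 sites in IP 1 and 5 in IP 2, of which 2 and 4 were insertions, all within 3 bases of a junction.

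Collagen chains had coding sites in fewer genes. Of 33 chains, 5 had coding sites in both IPs (15.2%, against 4.95% of all genes and 20.8% of the longest decile), 3 in 1 IP and 25 in neither, including COL1A1, COL1A2, COL10A1 and COL11A1. The density was 15.1 in IP 1 and 13.8 in IP 2, and COL18A1 alone held 10 of the 23 sites of IP 1 and 9 of the 21 of IP 2. With each deletion run counted as 1, it was 9.84 and 8.52, below the 10.1 and 10.9 of all genes. COL4A2, a collagen IV chain of basement membranes, had 4 sites in IP 1 and 3 in IP 2. They include a substitution with 11 of 11 tags mutated in IP 1 only, another with 8 of 8 in IP 2 only, and a shared junction insertion (3 of 10 and 2 of 7). COL7A1, the anchoring fibril collagen, had 2 and 4 sites, of which 2 and 3 were insertions, all within 3 bases of a junction.

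Matrix enzymes and inhibitors had coding sites in both IPs in 7 of 39 genes (17.9%, against 4.95% of all genes), in 1 IP in 10 and in neither in 22, with a density of 28.0 in IP 1 and 19.5 in IP 2. PLOD1, a lysyl hydroxylase of collagen, had 4 sites in IP 1 and 1 in IP 2, and LOXL1, a lysyl oxidase, 1 and 2. Adhesion and actin-linked proteins had them in both IPs in 18 of 45 genes (40.0%) and in neither in 13, with a density of 21.8 and 24.9. The median coding length was 2061 bases in the matrix enzymes and 3537 in the adhesion list, against 1293 over all genes. ACTB and AHNAK had none in either IP.

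The coding sites of ribosomal protein genes were seldom substitutions. The share of these genes with sites in both IPs was near that of all genes. It was above that of genes as short, on a count of 3 genes that is too small to set them apart. Their median coding length was 469 bases, against 1293 over all genes. In the shortest decile of all genes (median 366 bases) 0.304% had a site in both IPs, and in the next (597 bases) 1.12%. Of 78 cytoplasmic ribosomal proteins, 3 had a coding site in both IPs (3.85%, against 4.95% of all genes), 13 in 1 IP and 62 in neither. Their 11 sites in IP 1 and 12 in IP 2 gave 26.8 and 29.2 per 100 kb, and 9.09% and 8.33% were substitutions, against 49.5% and 48.1% of all coding sites. RPL22 had 1 insertion in each IP, at the same base. Translation factors had 11 and 20 sites, of which 9.09% and 20.0% were substitutions, and EIF3A had 4 in IP 2 only, with up to 38 tags. Glycolysis, lipid synthesis and chaperone genes had coding sites in both IPs in 7 of 31 genes (22.6%), with the highest density in IP 2 of the lists drawn, 42.6, and 28.9 in IP 1, and 31.6% and 21.4% of their sites were substitutions in IP 1 and IP 2. Low shares of substitutions were not particular to these lists: they were 16.7% and 12.5% in SR, hnRNP and splicing proteins, 26.1% and 19.0% in collagen chains, and 24.5% and 33.3% in DNA repair and chromatin regulators. SCD, the stearoyl-CoA desaturase, had 3 and 2 deleted bases with up to 13 and 10 tags.

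Proteins of the nucleus were taken as 2 lists. SR, hnRNP and splicing proteins had coding sites in both IPs in 5 of 42 genes (11.9%, against 4.95% of all genes) and in neither in 27, at 14.8 in IP 1 and 19.7 in IP 2 per 100 kb. DNA repair and chromatin regulators had them in both IPs in 16 of 41 genes (39.0%) and in neither in 10, at 18.6 and 21.7. The median coding length was 1438 bases in the splicing list and 5820 in the repair and chromatin list. KMT2A, a histone methyltransferase, had 5 sites in each IP, and KMT2C, another one, had 6 and 3.

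**Figure D5:**
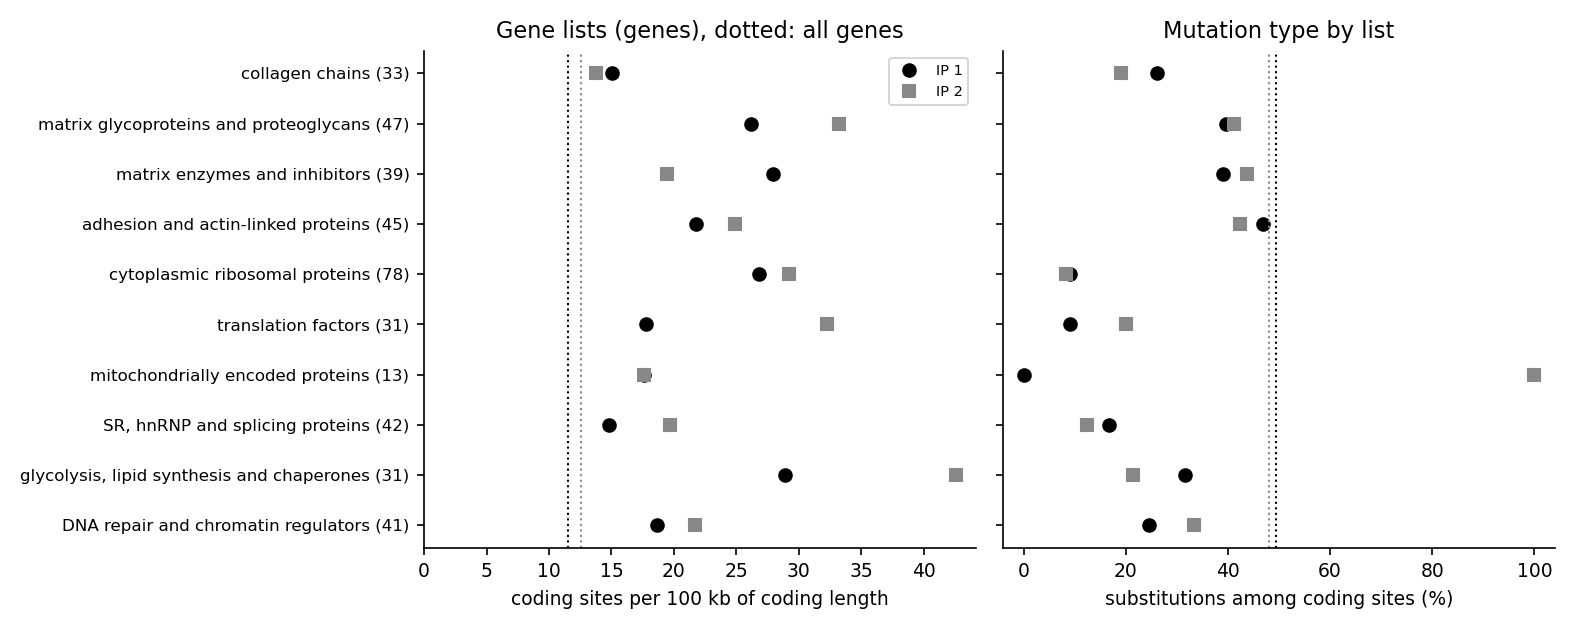
Coding sites per 100 kb of coding length (left) and the percentage of substitutions among coding sites (right) for each gene list, with the number of genes in brackets, in IP 1 (circles) and IP 2 (squares); dotted lines give all genes. All lists drawn stand above the all-gene densities of 11.5 and 12.6, and ribosomal proteins hold 9.09% and 8.33% substitutions. With deletion runs counted as 1, collagen chains fall below all genes, at 9.84 and 8.52 against 10.1 and 10.9. The mitochondrial points on the right rest on 2 sites in each IP.

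Most markers of cell types had no coding site, as was the case for most genes. Of 16 epithelial and proximal tubule markers, none had a coding site in both IPs and 4 had one in 1 IP. That is 25.0% with a site in either IP, where 22.3% of all genes have one. CDH1, KRT19 and KRT8 had 1 each, in IP 2 only, with up to 3 tags, and ANPEP and AQP1 had none. None of 8 markers of other kidney cells had one. Of 8 blood and endothelial markers VWF had 1, and of 4 stromal markers PDGFRB had 1, each in IP 1 with 2 tags. A gene without a mutated base has no site, so these counts do not measure whether a marker was expressed.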

How the data were processed

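RNA bound in 2 PARP1 IPs from HK-2 cells was sequenced, and 2 inputs were not analysed here. The tools named per the submitters' processing notes are TopHat2 and bcl2fastq, with the build GRCh38. Not given in the sources used here are the site caller, its thresholds, duplicate removal and the treatment of reads that map to several places. Per the file headers, the authors gave each site whole-number tag counts (k) and mutated tag counts (m), a score equal to m, and an FDR, which is an adjusted p-value and depended only on type, k and m. In all, 2 deposited columns (1 per list) were not used. Coding sites held 17969 tags in IP 1 and 19791 in IP 2, while the depth of the libraries is unknown.

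Coding sites were the rows of class CDS. Each was matched by base and strand between the IPs, and placed in the longest complete coding transcript of its gene (GENCODE 29, GRCh38, counted from 1), from which codon position, junction distance and sequence were read. Of 3966 and 4326 sites, 3 and 4 carried a gene identifier outside that annotation. Python 3.11.15, pandas 2.3.3, numpy 2.4.6 and scipy 1.17.1 were used, and the scripts were tested on simulated sites. The design assumed peak intervals, so single bases took the place of peaks.

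Named genes were the 12 with the most coding sites, the 10 densest per kilobase with at least 6 sites, those of the 15 shared sites with the most mutated tags, up to 8 with the most shared bases, up to 3 with the most and 2 with no sites in each of 14 lists (436 entries, all matched), the deepest sites and PARP1. Genes outside this rule (AKR1B1, DCBLD2, FN1, ABCC10, FAM120A and those marked in the text) were chosen after their values were seen. A few genes within the rule are not reported here. The members and lists were chosen with earlier results of these data known. Alternatives were stricter thresholds, other windows and leaving out each IP.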

Additional observations from a re-analysis of the deposited data

How the results depend on the processing

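With 2 IPs, leaving out either one returns the value of the other, so these ranges give the spread between the IPs and no check of stability: coding sites among all sites 1.88% to 2.39%, deletions among them 37.4% to 38.5%, mean k 4.53 to 4.57, sites per 100 kb 11.5 to 12.6, last codon position over all types 40.5% to 40.8%, within 5 bases of a junction 11.9% to 12.3%, runs of 4 or more equal bases 11.4% to 11.5%, neighbours within 10 bases 23.9% to 25.1%, deletion runs in multiples of 3 82.2% to 82.5%, insertions at a junction 72.6% to 75.3% and substitutions at the last codon position 46.0% to 47.1%. Here and below, multiples of 3 are counted among deletion runs of 3 or more bases. Recurrence and genes in both IPs need both, so leaving out an IP gave no value.

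A value from leaving out either IP always lies within the spread between the IPs, so such values count as staying by construction. With these included, there were 75 alternatives over 19 results. Of them, 46 stayed within the spread between the IPs or within 1.5 times the main count, and 28 moved further. In 1 the direction turned round: coding minus outside, the share of deletions was 16.9 percentage points over all sites and -3.19 with 3 or more mutated tags. The same filter gave gaps of -3.88 points in substitutions (-24.7 without it), 7.07 in insertions (7.85), 5.81 in recurrence (1.91), 5.26 in the recurrence of substitutions (3.90) and 3 in mean k (2.09). These gaps between coding and other sites were added after seeing the data. Requiring 3 or more mutated tags changed most, and the cause was not tested. It left coding sites at 3.87% of all sites (2.13% over both IPs without it), recurrence at 10.1% (5.46%), deletions at 7.41% of coding sites (37.9%), 108 genes in both IPs (979), 1.82 sites per 100 kb (12.1), 50.4% at the last codon position (40.7%), 54.0% of substitutions there (46.5%) and 100% of deletion runs in multiples of 3 (82.3%). Keeping only FDR values under the commonest value gave a coding share of 3.86%, recurrence of 4.22% and 468 genes in both IPs. That setting drops substitutions with 2 tags, both mutated, so it changes the mix of types. Matching on either strand gave a recurrence of 6.08%, and leaving out runs listed in both IPs gave 81.4% multiples of 3. Taken by mutation type, mean k was 3.07 for substitutions, 6.34 for deletions and 4.90 for insertions. A distance of 3 bases to a junction held 10.9% and of 10 bases 15.1% of coding sites, and a window of 50 bases gave neighbours to 28.1%. Runs of 5 or more equal bases held 5.55%, and runs of 4 or more held 5.87% of substitutions, 14.5% of deletions and 23.0% of insertions. The settings on deletion runs, on insertions at a junction and on substitutions at the last codon position, and the count of a run as 1 site, were chosen after seeing the data.

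No paired analysis was possible because the inputs that share replicate numbers with the IPs were not analysed here, and the results come from no test over samples. Depth limits what can be seen: at 2 or 3 tags a mutated share is coarse, and the lists do not tell an unmutated base from an uncovered one.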
